A study of Mus musculus with 6 samples.

Results

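The genes of MHC class I antigen presentation were followed in polyadenylated RNA of wild-type mouse pancreatic islets. The set was chosen by name and held 10 genes of the 46983 in the count table, and all 10 passed the filter on low counts that left 13996 genes for testing. Islets had been held for 24 h in CMRL medium at stimulating (high) glucose or at non-stimulating (low) glucose, and each condition has 3 libraries. The sources used here give neither the glucose concentrations, nor the strain, sex and age of the mice, nor how many animals were pooled for a library. The labels name beta cells and pancreatic islets as the material and carry no other allele or agent.

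MHC class I molecules show fragments of a cell's own proteins to cytotoxic T cells. Proteasomes cut the proteins, and immunoproteasomes, in which the subunits encoded by Psmb8, Psmb9 and Psmb10 replace their constitutive partners, favour fragments that fit class I. The TAP transporter, built from the products of Tap1 and Tap2, carries the fragments into the endoplasmic reticulum, and tapasin, encoded by Tapbp, holds empty class I beside it until a fragment binds. The presenting molecule is a heavy chain, such as those of H2-K1 and H2-D1, paired with beta-2-microglobulin from B2m. Nlrc5 encodes a transactivator of class I genes, and interferons induce the whole set in many cell types. In autoimmune diabetes, class I on beta cells is what cytotoxic T cells recognise.

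At high glucose the transport and loading genes rose, 1 immunoproteasome subunit fell, and the presenting molecules themselves did not pass the test. Tapbp rose 2.16-fold, Tap1 2.40-fold and Tap2 1.58-fold, while Psmb10 fell to 0.347 of its low glucose level. With edgeR's quasi-likelihood test and Benjamini-Hochberg adjustment over all genes, 3 of the 10 genes rose, 1 fell and 6 did not pass an adjusted p of 0.05. Over all genes tested 27.5% passed, 13.3% upward and 14.2% downward. The share of the 10 genes that passed, 40.0%, rests on 4 genes. In CPM (counts per 1000000 scaled counts) 6 of the 10 had groups that did not overlap, 4 higher and 2 lower, against 45.9% of all genes tested (23.5% higher and 22.4% lower). The 10 genes had a median log2 fold change (high minus low) of 0.37, against 0.01 over all genes tested. With the replicate number as a block 3 of the 10 rose and 2 fell, against 33.4% of all genes (15.7% up and 17.7% down). With library totals in place of TMM 7 rose and 0 fell, against 64.1% (59.6% up and 4.49% down). With 1 library left out the counts depended most on the low glucose group. Without low glucose replicate 2, 1 of the 10 rose and 1 fell, against 12% of all genes (4.86% up and 7.11% down), and without low glucose replicate 3, 1 rose and 1 fell, against 19.6% (8.76% up and 10.9% down).

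Library totals ranged from 14150726 to 15846235 counts at high glucose and from 10596020 to 12730985 at low glucose, and a library held between 25 and 12227 counts of each of the 10 genes. What the libraries were made of differed with the condition. A list of 26 markers of acinar cells, which make digestive enzymes, took 12.9% to 25.8% of the counts at high and 50% to 65.7% at low glucose. A list of 17 islet endocrine markers took 3.27% to 8.95% at high and 2.10% to 4.46% at low glucose, and each of the 17 was counted in all 6 libraries. Levels are given as CPM, with library sizes scaled by TMM, a method that trims extreme genes before it sets the scale. On this scale the islet endocrine markers summed to 50143.7, 23889.9 and 27063.0 CPM at high and 47544.2, 37074.9 and 41645.6 CPM at low glucose. Their median log2 fold change was -0.74, with 1 higher and 4 lower, against 13.3% and 14.2% of all genes. With the replicate block 2 rose and 9 fell, against 15.7% and 17.7%. With library totals 4 rose and 2 fell, against 59.6% and 4.49%. With plain library totals the middle of all log2 fold changes lay at 1.16, so directions are relative to TMM scaling. In bulk RNA, fewer cells of a type and less RNA per cell cannot be told apart.

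The upstream windows of 5 of the genes show how alike the heavy chain genes are beside a gene that rose and a gene that fell. RefSeq windows on GRCm38.p6, each 300 bases long with 250 before the transcript start, were found for 8 of the 10 genes. Those of H2-K1 (the first of several listed, chr17:34000298-34000597, minus strand), H2-D1 (chr17:35262844-35263143, plus strand), B2m (chr2:122147437-122147736, plus strand), Tap1 (chr17:34187306-34187605, plus strand) and Psmb10 (chr8:105938343-105938642, minus strand) are printed 5′ to 3′. Capitals mark every match, on either strand and with overlapping matches joined, to 4 motifs: AANNGAAA (the core bound by interferon regulatory factors), an NF-kappaB form (GGGA, any 4 bases, then CC), TGACG (part of the cAMP response element) and CCAAT.
H2-K1: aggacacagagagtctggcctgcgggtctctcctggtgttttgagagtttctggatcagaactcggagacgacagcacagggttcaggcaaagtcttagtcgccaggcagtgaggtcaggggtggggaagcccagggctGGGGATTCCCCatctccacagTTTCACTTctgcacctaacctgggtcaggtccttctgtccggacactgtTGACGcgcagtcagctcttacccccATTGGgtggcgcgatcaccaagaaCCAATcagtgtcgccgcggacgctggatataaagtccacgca
H2-D1: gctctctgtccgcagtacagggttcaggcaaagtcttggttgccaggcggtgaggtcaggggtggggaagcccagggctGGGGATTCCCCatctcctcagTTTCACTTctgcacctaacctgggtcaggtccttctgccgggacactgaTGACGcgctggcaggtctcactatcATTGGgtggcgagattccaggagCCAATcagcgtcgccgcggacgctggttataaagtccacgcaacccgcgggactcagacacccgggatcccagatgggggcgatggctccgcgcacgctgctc
B2m: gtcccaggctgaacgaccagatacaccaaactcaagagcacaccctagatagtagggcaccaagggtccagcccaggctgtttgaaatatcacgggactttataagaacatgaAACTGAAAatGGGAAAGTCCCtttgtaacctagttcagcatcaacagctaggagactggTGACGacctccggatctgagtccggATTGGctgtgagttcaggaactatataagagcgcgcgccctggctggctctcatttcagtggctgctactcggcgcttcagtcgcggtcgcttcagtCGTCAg
Tap1: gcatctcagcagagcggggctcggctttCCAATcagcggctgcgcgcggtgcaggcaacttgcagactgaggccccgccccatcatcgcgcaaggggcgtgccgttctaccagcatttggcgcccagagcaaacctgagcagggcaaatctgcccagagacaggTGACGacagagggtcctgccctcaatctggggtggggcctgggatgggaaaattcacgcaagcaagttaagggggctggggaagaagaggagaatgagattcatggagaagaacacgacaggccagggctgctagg
Psmb10: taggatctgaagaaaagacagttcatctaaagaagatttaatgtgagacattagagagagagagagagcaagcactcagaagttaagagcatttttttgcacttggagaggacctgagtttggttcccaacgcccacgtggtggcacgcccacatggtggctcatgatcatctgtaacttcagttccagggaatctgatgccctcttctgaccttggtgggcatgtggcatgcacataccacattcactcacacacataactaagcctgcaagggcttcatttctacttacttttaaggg

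The windows of H2-K1 and H2-D1 were 90.4% identical over 228 aligned positions and held all 4 motifs in the same order, the NF-kappaB form first. B2m also held all 4, with the interferon regulatory factor core ahead of the NF-kappaB form. In Tap1 only TGACG and CCAAT matched, and in Psmb10 none of the 4 did. Of all 32851 RefSeq windows 23.9% held AANNGAAA, 20.7% held the NF-kappaB form, 20.8% held TGACG and 37.4% held CCAAT. Among the 8 genes with a window, those motifs matched in 3, 3, 5 and 6 in the same order. The Tap1 window shared 275 bases with that of Psmb9, which is read from the other strand. These matches describe letters in a fixed window and say nothing about binding.

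The loading factor gene Tapbp, on chromosome 17 (33915899 to 33929292, GRCm38), rose with the smallest spread of the 10 genes among the high glucose libraries. It had 186.0, 153.5 and 182.3 CPM in high glucose replicates 1 to 3, against 89.7, 78.6 and 73.3 CPM in low glucose replicates 1 to 3. Every high glucose library lay above every low glucose library. The log2 fold change was 1.11 ± 0.17 (SE) with an edgeR adjusted p of 0.00393. The call held without each of the 6 libraries in turn. Of the annotated exonic bases of Tapbp, 29.0% overlap other genes, mostly an antisense gene that held 93 counts in all 6 libraries together, and the strand setting of the counting was not known here. Another 149 bases are shared with Zbtb22, a protein-coding gene on the same strand that held 1821 counts. Such overlaps took 18.5% of the exonic bases of Tap2 and 14.7% of those of Psmb8. Tap1 and Psmb9, on opposite strands, share 212 exonic bases.

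The transporter subunit gene Tap1 (chromosome 17, 34187553 to 34197225) had 31.9, 36.9 and 62.0 CPM at high glucose, against 21.2, 18 and 15.3 CPM at low glucose. Its groups did not overlap, and high glucose replicate 3 stood well above replicates 1 and 2. This was a log2 fold change of 1.26 ± 0.28 (SE), with an edgeR adjusted p of 0.0151. The call was lost without low glucose replicate 2 (edgeR adjusted p = 0.0626) or replicate 3 (edgeR adjusted p = 0.0509).

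Its partner Tap2 (chromosome 17, 34203527 to 34216321) had 42.6, 57.3 and 70.2 CPM at high and 33.3, 38.1 and 36.3 CPM at low glucose. These groups did not overlap either, but high glucose replicate 1 lay close to the low glucose libraries. At 0.66 ± 0.20 (log2 fold change, SE) it was just past the threshold, with an edgeR adjusted p of 0.0440. That call was lost without any 1 library other than high glucose replicate 1, with adjusted p-values of 0.0908 to 0.151, and in limma-voom (adjusted p = 0.0575).

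**Figure D1:**
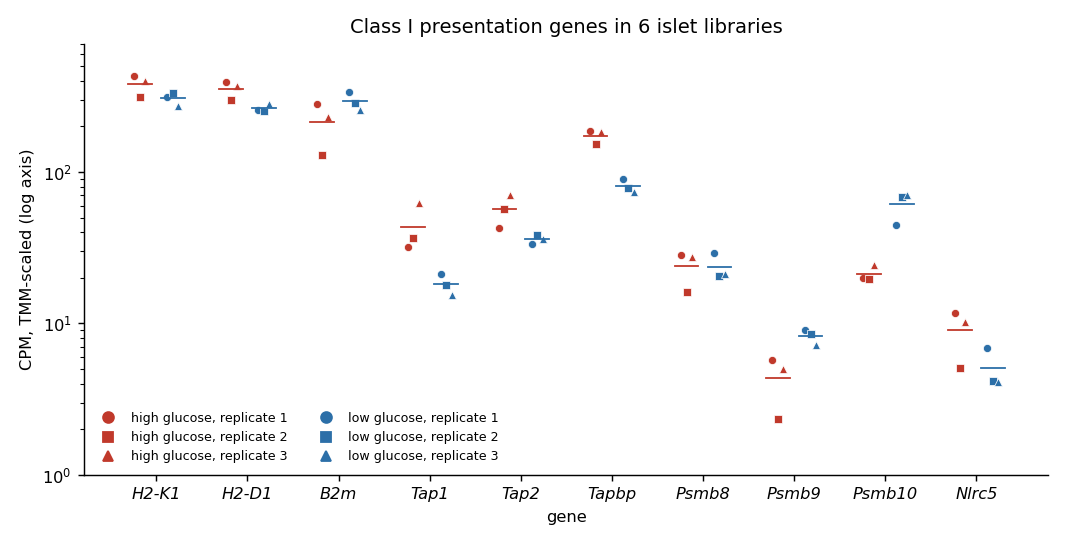
CPM of each of the 10 genes (log axis) in the 3 high glucose libraries (red, left) and the 3 low glucose libraries (blue, right), with marker shapes for the replicate and lines for group means. Tapbp, Tap1, Tap2 and H2-D1 sit higher in every high glucose library, and Psmb9 and Psmb10 lower, though with library totals the sign of Psmb9 turns and neither Psmb9 nor Psmb10 passes.

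The genes of the presenting molecules did not pass the test. H2-K1 (chromosome 17, 33996017 to 34000347), a classical heavy chain gene, had 432.5, 314.8 and 401.1 CPM at high glucose and 314.9, 332.1 and 273.5 CPM at low glucose. High glucose replicate 2 fell within the range of the low glucose libraries. With a log2 fold change of 0.32 ± 0.21 (SE) it did not pass (edgeR adjusted p = 0.285).

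The other classical heavy chain gene, H2-D1 (chromosome 17, 35262730 to 35267499), had 389.7, 299.2 and 372.0 CPM at high glucose and 258.4, 254.5 and 279.4 CPM at low glucose. Here the groups did not overlap, yet the difference of 0.42 ± 0.19 (log2, SE) did not pass the edgeR test (adjusted p = 0.137). DESeq2 placed it just past the threshold with an adjusted p of 0.0479. Counts of both heavy chains are uncertain, because 9.6% of the 50-base words in H2-K1 transcripts and 12.8% of those in H2-D1 transcripts also occur in other annotated genes, most often other H2 genes. The sources used here do not say how reads that fit several genes were counted.

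B2m (chromosome 2, 122147686 to 122153083), which encodes the shared light chain, had 280.4, 129.8 and 230.1 CPM at high and 338.9, 284.8 and 257.1 CPM at low glucose. The high glucose libraries spread over a 2.16-fold range, and replicate 1 lay inside the low glucose range. Its log2 fold change of -0.46 ± 0.30 (SE) did not pass (edgeR adjusted p = 0.283), and the sign turned with library totals (0.69, below the median shift).

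The ratio of heavy to light chain transcripts does not depend on how libraries are scaled. Counts of H2-K1 per count of B2m were 1.54, 2.42 and 1.74 at high glucose, against 0.929, 1.17 and 1.06 at low glucose. Every high glucose library had the larger ratio, and the mean difference was 0.83 on the log2 scale. A two-sided exact permutation test gave p = 0.1 (0.15 adjusted over 6 ratios), the smallest p that 3 against 3 libraries allow. H2-D1 per H2-K1 was 0.901, 0.950 and 0.927 at high and 0.821, 0.766 and 1.02 at low glucose, with overlapping groups and an exact permutation p of 0.5 (0.5 adjusted).

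Among the immunoproteasome genes Psmb10 (chromosome 8, 105935735 to 105938444) fell. It had 20.0, 19.5 and 24.2 CPM at high glucose, against 44.7, 68.2 and 70.9 CPM at low glucose. The highest high glucose library lay far below the lowest low glucose library. It fell by 1.53 ± 0.21 (log2, SE) with an edgeR adjusted p of 0.00285, and the call held without each library in turn. With library totals the log2 fold change was -0.31, far below the median shift, and did not pass (edgeR adjusted p = 0.278).

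Psmb9 (chromosome 17, 34181987 to 34187764) ran the same way with fewer counts. It had 5.73, 2.35 and 4.99 CPM at high and 9.04, 8.48 and 7.23 CPM at low glucose, and the groups did not overlap. The log2 fold change was -0.92 ± 0.35 (SE) and the edgeR adjusted p 0.0879. With the replicate number as a block the adjusted p was 0.04997, at the threshold, and without high glucose replicate 1 it was 0.0328. With library totals the sign turned (0.24).

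Psmb8 (chromosome 17, 34197721 to 34201454) did not follow them. It had 28.2, 16.2 and 27.6 CPM at high and 29.3, 20.4 and 21.2 CPM at low glucose. The ranges overlapped almost wholly, with a log2 fold change of 0.01 ± 0.26 (SE) and an edgeR adjusted p of 0.971.

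The genes of the constitutive subunits that these 3 replace did not pass the test, though each was higher in every high glucose library than in any low glucose library. At high glucose Psmb5 averaged 21.5 ± 0.580 CPM, against 14.6 ± 4.44 CPM at low glucose (SD, n = 3 each). Its log2 fold change was 0.57 ± 0.24 (SE). For Psmb6 the means were 66.4 ± 2.19 CPM at high and 52.9 ± 11 CPM at low glucose, and for Psmb7 62.1 ± 3.67 CPM at high and 44.2 ± 9.13 CPM at low glucose. Their edgeR adjusted p-values were 0.116, 0.207 and 0.0736.

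Within a library, the balance between each immunoproteasome subunit and its constitutive partner can be read without any scaling. It still depends on the mix of cells in the library, whose part was not tested. Psmb10 counts per Psmb7 count were 0.341, 0.296 and 0.392 at high glucose, against 1.26, 1.56 and 1.32 at low glucose. This was a log2 difference of -2.01, or 0.248 of the low glucose ratio, and the gap between the groups was wide against the spread within them. Psmb9 per Psmb6 was 0.0892, 0.0345 and 0.0760 at high and 0.225, 0.147 and 0.121 at low glucose, a log2 difference of -1.37. Both ratios separated the groups fully, with an exact permutation p of 0.1 (0.15 adjusted), the smallest possible. Psmb8 per Psmb5 was 1.35, 0.749 and 1.25 at high and 2.98, 1.32 and 1.14 at low glucose, with overlap and an exact permutation p of 0.5 (0.5 adjusted).

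**Figure D2:**
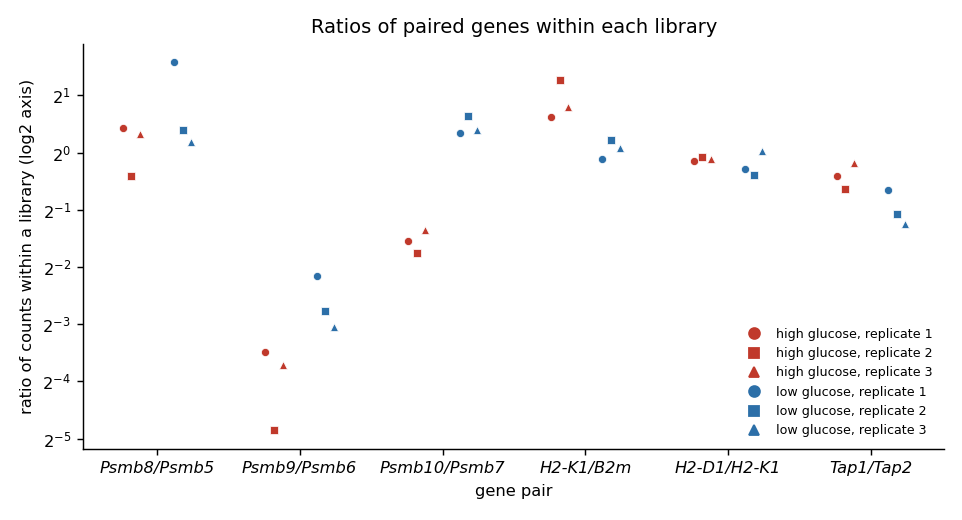
Ratio of the counts of 2 genes within each library (log2 axis) for 6 gene pairs, high glucose in red on the left and low glucose in blue on the right of each pair. Psmb10 per Psmb7 falls to between 0.296 and 0.392 at high glucose, against 1.26 to 1.56 at low glucose, while H2-K1 per B2m and Tap1 per Tap2 are higher in every high glucose library.

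The balance of the transporter subunits differed as well. Tap1 per Tap2 was 0.749, 0.645 and 0.883 at high and 0.636, 0.473 and 0.421 at low glucose, narrowly without overlap (log2 difference 0.58, exact permutation p = 0.1, 0.15 adjusted).

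Nlrc5 (chromosome 8, 94434356 to 94527272), the class I transactivator gene, had the lowest mean of the set per length. It had 11.7, 5.04 and 10.2 CPM at high and 6.86, 4.16 and 4.09 CPM at low glucose. High glucose replicate 2 lay below low glucose replicate 1, so the groups overlapped. The log2 fold change was 0.82 ± 0.38 (SE) with an edgeR adjusted p of 0.144, and without high glucose replicate 2 it passed with an adjusted p of 0.0489.

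**Figure D3:**
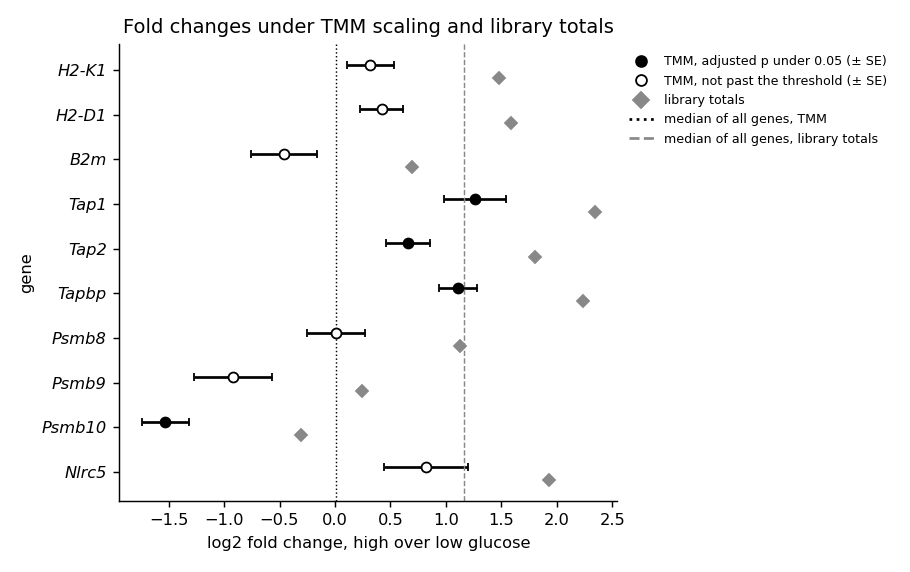
Log2 fold change (high over low glucose) of the 10 genes under TMM scaling (circles ± SE, filled where the adjusted p is under 0.05) and under library totals (grey diamonds), with the median of all genes under each scaling as a vertical line. Tapbp, Tap1 and Tap2 lie right of the median and Psmb10 left of it under both scalings, while the signs of B2m and Psmb9 turn with library totals.

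Per length, the light chain stood first and the transactivator last. In CPM per kilobase of annotated exon, B2m led with 248.2 ± 89.1 at high and 341.4 ± 48.4 at low glucose (SD, n = 3 each). At high glucose the heavy chains followed, H2-D1 at 137.1 ± 18.6 and H2-K1 at 130.3 ± 20.8, and did not differ beyond their spread. At low glucose they stood at 102.4 ± 5.20 and 104.4 ± 10.3. Next at high glucose came Tapbp at 47.9 ± 4.91, then Tap2 at 15 ± 3.65 and Psmb10 at 12.5 ± 1.53, which overlapped. At low glucose Psmb10 stood ahead of Tapbp, at 35.9 ± 8.45 against 22.2 ± 2.31. Tap1 and Psmb8 were level at high glucose, at 7.97 ± 2.94 and 7.10 ± 2.00 CPM per kilobase, but at low glucose Tap1 (3.31 ± 0.541) lay below Psmb8 (7.0 ± 1.45). Psmb9 and Nlrc5 closed the order with 1.19 ± 0.486 and 1.06 ± 0.413 at high and 2.25 ± 0.252 and 0.593 ± 0.186 at low glucose.

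Lengths are all annotated exons of a gene together, so levels per length depend on that annotation. The spread among high glucose libraries was uneven over the set. The highest of the 3 was 2.44 times the lowest for Psmb9, 2.33 times for Nlrc5 and 2.16 times for B2m, but 1.21 times for Tapbp and 1.24 times for Psmb10.

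Markers of other cell types moved between these libraries too. For 21 leukocyte markers the summed level was 293.8, 71.3 and 134.3 CPM at high and 298.6, 224.7 and 313.1 CPM at low glucose. High glucose replicate 1 lay within the low glucose range, and high glucose replicate 2 was the lowest of all. Cd3d, Ncr1, Klrb1c and Nkg7 had 0 counts in at least 1 library, and Ptprc, which encodes the pan-leukocyte antigen CD45, was present in all 6. Of the 17 leukocyte markers tested 2 rose and 1 fell, where 13.3% of all genes rose and 14.2% fell. Without high glucose replicate 1 these were 2 and 11, against 19.8% and 20.5% of all genes. They were 2 and 8 with the replicate block (15.7% and 17.7%), and 2 and 0 under library totals (59.6% and 4.49%). For 8 endothelial markers the sums were 273.4, 128.8 and 184.8 CPM at high and 302.7, 246.0 and 286.2 CPM at low glucose, and 2 of the 8 fell. Without high glucose replicate 1, 5 endothelial markers fell, with the replicate block 4 fell and 1 rose, and with library totals 0 fell and 1 rose. The all-gene shares for each setting are those given with the leukocyte markers.

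The 9 stellate cell and pericyte markers summed to 271.3, 45.5 and 78.2 CPM at high and 386.6, 311.7 and 415.9 CPM at low glucose. Of these 3 fell, or 8 without high glucose replicate 1, 5 with the replicate block or 1 under library totals. Over all genes 14.2% fell, or 20.5%, 17.7% and 4.49% under the same alternatives. Duct markers ran the other way, as the transport and loading genes did. Their 10 genes summed to 5098.0, 9710.7 and 8720.4 CPM at high and 901.7, 1104.5 and 1322.5 CPM at low glucose. Of the 10, 6 rose, against 13.3% of all genes, or 8 with library totals, against 59.6%. Their median log2 fold change was 2.40. A single duct marker, 1 of the 10, fell with the replicate block (17.7% of all genes) and without high glucose replicate 1 (20.5%). Within the high glucose group the duct sum was lowest in replicate 1, as Tap1 and Tap2 were, but Tapbp was lowest in replicate 2. All of the duct, stellate and endothelial markers were counted in all 6 libraries.

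Within the high glucose group 16 of the 21 leukocyte markers, 8 of the 8 endothelial markers and 7 of the 10 class I presentation genes ran in the order replicate 1, 3, 2, as did 25% of all genes tested. The 7 were H2-K1, H2-D1, B2m, Tapbp, Psmb8, Psmb9 and Nlrc5, and the exceptions were Tap1, Tap2 and Psmb10. The same order held for 7 of the 9 stellate cell and pericyte markers and 9 of the 17 islet endocrine markers. It also held for 9 of the 9 MHC class II genes and 11 of the 22 class I genes outside the set. Only 1 of the 26 acinar markers and 0 of the 10 duct markers ran so. The part of any of these cell types in the class I levels was not tested. Without high glucose replicate 1, which has the highest summed leukocyte, endothelial, stellate and islet endocrine markers of its group, 3 of the 10 genes rose and 2 fell, against 40.3% of all genes (19.8% up and 20.5% down), and Tap1, Tap2 and Tapbp had log2 fold changes of 1.44, 0.83 and 1.06.

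MHC class II genes, which professional antigen-presenting cells use to show outside proteins to helper T cells, were measured beside them. The 9 genes summed to 437.8, 44.5 and 160.2 CPM at high and 747.8, 827.0 and 753.9 CPM at low glucose. The sum of each high glucose library lay below that of every low glucose library. By edgeR 1 of the 9 fell, where 14.2% of all genes did, namely H2-DMb1 at -2.75 ± 0.60 (log2, SE; adjusted p 0.0146), a call lost without high glucose replicate 3 or low glucose replicate 2 and with library totals. With the replicate block 7 fell (17.7% of all genes), without high glucose replicate 1 all 9 did (20.5%), and with library totals 0 did (4.49%). Their median log2 fold change was -2.03, against 0.37 for the 10 class I presentation genes.

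**Figure D4:**
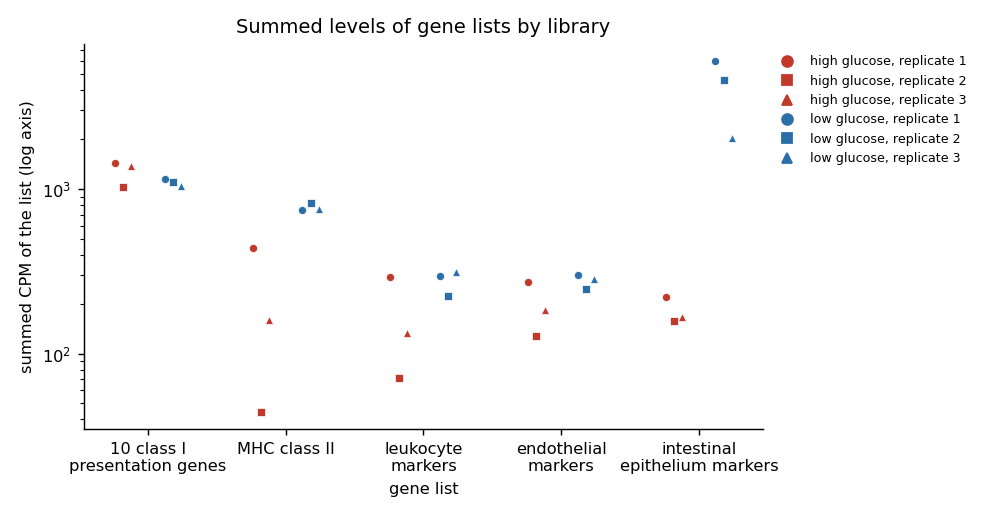
Summed CPM (log axis) of 5 gene lists in each library, high glucose in red on the left and low glucose in blue on the right. The class I presentation genes stay between 1034.5 and 1428.8 CPM at high and between 1038.3 and 1146.3 CPM at low glucose, while class II and intestinal markers lie lower in every high glucose library.

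Of 8 other genes of peptide trimming and loading 3 rose, where 13.3% of all genes did, and the rest did not pass, with a median of 0.21. Tapbpl, a tapasin relative that edits the fragments bound to class I, had 58.7, 43.5 and 48.5 CPM at high and 19.8, 22.1 and 20.0 CPM at low glucose, a log2 fold change of 1.29 ± 0.16 (SE; edgeR adjusted p 0.00201). Erap1, which trims fragments in the endoplasmic reticulum, had 47.5, 48.7 and 48.4 CPM at high and 32.7, 24.3 and 26.4 CPM at low glucose (0.79 ± 0.15, edgeR adjusted p 0.00972). Tpp2, a cytosolic peptidase gene, rose by 0.52 ± 0.16 (adjusted p 0.0436), a call lost without high glucose replicate 2 or 3 or low glucose replicate 1 or 2. Those that did not pass were the general chaperone genes Canx, Calr, Pdia3 and Hspa5 and the protease gene Ide, between -0.09 and 0.38.

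Of 7 proteasome partner genes 2 rose, where 13.3% of all genes did, and the rest did not pass, with a median of 0.49. Psme1, a subunit of the proteasome activator that interferon induces, rose by 0.66 ± 0.16 (log2, SE; edgeR adjusted p 0.0224), a call lost without high glucose replicate 2 or 3 or low glucose replicate 2 or 3. Its partner Psme2 (0.31 ± 0.22) did not pass. Pomp, which encodes a proteasome assembly factor, rose by 0.65 ± 0.13 (adjusted p 0.0108), a call lost without high glucose replicate 3 or low glucose replicate 2.

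Of 22 class I genes outside the set, 18 were tested, 1 rose and 4 fell, with a median of 0.06. Among all genes 13.3% rose and 14.2% fell. H2-Q4, a non-classical heavy chain gene, rose, with 62.0, 40.9 and 69.5 CPM at high and 31.2, 27.9 and 21.1 CPM at low glucose (1.10 ± 0.24, edgeR adjusted p 0.0149), a call lost without high glucose replicate 3 or low glucose replicate 2.

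H2-T3, which encodes the thymus leukemia antigen known from intestinal epithelium, had 1, 0 and 0 counts at high glucose, against 414, 166 and 61 counts at low glucose. The low to high ratio of TMM-scaled counts was 1796 (exact 95% interval 321 to 71041, counting error only), and the edgeR adjusted p was 6.44e-04. H2-Q1 had 0.460, 0.0499 and 0 CPM at high and 21.5, 17.6 and 12.6 CPM at low glucose, with 13, 1 and 0 counts in the high glucose libraries. Its fitted log2 fold change of -6.42 ± 0.76 (SE; edgeR adjusted p 0.00173) rests on these few counts and depends on the prior count, and without high glucose replicate 1 it was -8.96.

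H2-Q2 fell by 2.08 ± 0.28 (log2, SE; edgeR adjusted p 0.00264), a call that library totals end (-0.98). Fcgrt, the neonatal Fc receptor gene, fell by 2.84 ± 0.33 (adjusted p 0.00169). Beside these falls, 12 markers of intestinal epithelium, a list added after the values were seen, summed to 220.8, 157.9 and 168.2 CPM at high and 5936.2, 4579.7 and 2046.3 CPM at low glucose. All 10 of them that were tested fell, where 14.2% of all genes did. Because the list was added with the values known, this count tests nothing. Cdx1, Cdx2 and Sis had 0 counts in at least 1 library. H2-T3, H2-Q1, H2-Q2 (118.2, 111.0 and 57.1 CPM) and Fcgrt (10.9, 10.6 and 8.02 CPM) all ran in the order of that sum over the low glucose libraries. So did B2m, Psmb9 and, among genes that rose, Tapbp, Tap1 and H2-Q4, so the order does not set the fallen genes apart. The share of all genes that ran in this order was not counted. The part of such cells in these falls was not tested.

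**Figure D5:**
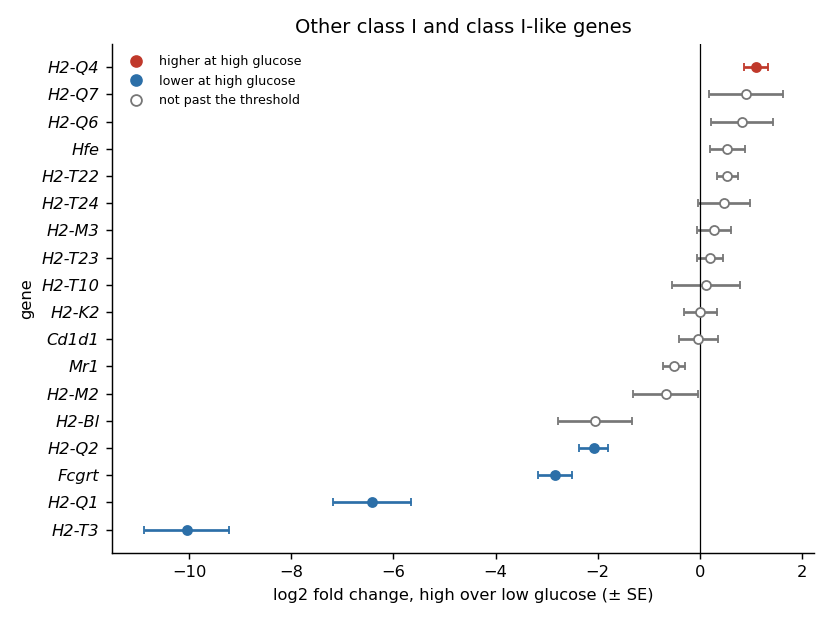
Log2 fold change (high over low glucose, ± SE) of the 18 tested class I and class I-like genes outside the set, ordered by value, under TMM scaling. Of the genes past the threshold (filled points) H2-Q4 is higher at high glucose and H2-Q2, Fcgrt, H2-Q1 and H2-T3 are lower, though H2-Q2 does not pass with library totals and the fitted values of H2-T3 and H2-Q1 depend on the prior count, since their high glucose libraries hold few counts.

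Of 24 regulators and interferon signaling genes, 22 were tested, 6 rose and 1 fell, with a median of 0.34. Among all genes 13.3% rose and 14.2% fell. The interferon-activated factor genes Irf9 (1.73 ± 0.20, log2 and SE) and Stat2 (1.54 ± 0.24) were among those that rose, as were Irf7 (1.80 ± 0.42), the NF-kappaB subunit gene Rela (1.86 ± 0.39) and the type I interferon receptor gene Ifnar1 (0.61 ± 0.17). The edgeR adjusted p-values of Irf9, Stat2 and Rela were 0.00168, 0.00443 and 0.0126. Rela lost its call without low glucose replicate 2, and Irf7 without low glucose replicate 1 or 2. Ifnar1 lost its call without high glucose replicate 3 or low glucose replicate 2 or 3. Irf2 fell by 0.48 ± 0.13 (edgeR adjusted p 0.0342), a call lost without any 1 library other than high glucose replicate 1, and its sign turned with library totals (0.66, not passing).

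Irf1, which encodes an activator of class I and immunoproteasome genes, had 44.8, 30.2 and 40.2 CPM at high and 37.1, 30.4 and 24.4 CPM at low glucose and did not pass (0.32 ± 0.21, edgeR adjusted p 0.293). Of the interferon genes themselves only Ifng and Ifnb1 were looked at, and both were at the limit of detection. Ifng had 1 count over the high and 0 over the low glucose libraries, and Ifnb1 had 0 over both. A count of 0 allows up to 3 counts over a group, or 0.0440 CPM at high and 0.123 CPM at low glucose.

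The mean pattern of the 10 genes over the 6 libraries was taken as a profile. It averages genes that rose and genes that fell. Its values were 0.19, -0.27 and 0.3 at high and 0.03, -0.08 and -0.16 at low glucose, so its groups overlapped. The genes nearest to this profile, by root-mean-square difference of centred log2 CPM, were Foxred1 (0.046), Gpi1 (0.079), Znfx1 (0.086), Nagk (0.092) and Eva1b (0.101). None of the 5 passed the test, an outcome that the overlap in the profile made likely beforehand.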

How the data were processed

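RNA-seq of 6 libraries (2 groups of 3) was used. The deposited values are raw read counts for each gene, without normalization. STAR 2.7.3a, HTSeq 0.6.1p1 and GRCm38 are named per the submitters' processing notes. The sources used here give no annotation release, strand setting or use of molecular barcodes, so intervals cover counting error only. The H2 genes vary between mouse strains, and the strain was not given either.

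Names, positions and exonic lengths were taken from the GENCODE M21 annotation of GRCm38, which lacks 495 of the IDs (0.0141% of the counts). Columns were matched to samples by title and groups came from the treatment label. High and low glucose were compared with edgeR 4.0.16 in R 4.3.3 (TMM, filterByExpr with a minimum count of 10 and a minimum total of 15, quasi-likelihood F-test, Benjamini-Hochberg adjustment over 13996 genes, threshold 0.05). Standard errors were taken as the log2 fold change over the root of F. Ratios within a library had 0.5 counts added to each gene. The main fit was tested on simulated data. So were library totals, DESeq2 and its size factors, limma-voom, the replicate block and the fit without high glucose replicate 1. The other alternatives and the ranking by pattern were not. The simulated data did not copy the difference in acinar transcripts between the groups.

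The labels do not state that the replicates are separate mice or cultures. The p-values therefore measure the spread between these libraries, which may be technical. No 2 libraries of a group agreed within sampling noise (chi-square over degrees of freedom 16.2 or more). Replicate numbers are shared by the groups. Deviations of same-numbered libraries from their group means correlated at 0.40, 0.26 and 0.25, all above 0.1, so the libraries may be paired by number. The main test and the exact permutation tests did not use this pairing. Only the fit with the replicate block, run as an alternative, did. The labels state no pairing.

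The members and lists were chosen with earlier results of these data known. Named genes were the 10 members, up to 4 changed genes of each companion list with the smallest p, Psmb5, Psmb6, Psmb7, Psme1, Psme2 and Irf1, and the 5 nearest in pattern. A further gene under this rule is not reported here. Others were named after their values were seen: H2-Q4, H2-Q6, H2-Q7, Irf7, Ifnar1, Irf2, Cd274, Ifng, Ifnb1 and the loading genes that did not pass. The intestinal markers were also added then. Alternatives were other scalings, 2 other filters, DESeq2 1.42.0, limma-voom (limma 3.58.1), the replicate block, acinar markers left out, and each library left out in turn. Figures were drawn with matplotlib 3.10.9.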

Additional observations from a re-analysis of the deposited data

How the results depend on the processing

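Of the 10 genes, 3 higher and 1 lower at high glucose in the main test became 7 and 0 with library totals and 3 and 2 with the replicate block, and leaving out 1 library gave 1 to 3 higher and 1 to 2 lower. Tapbp passed under every alternative run, and Psmb10 under all but library totals. Signs turned for B2m (0.69) and Psmb9 (0.24) with library totals, for Irf2 (0.66) with library totals, and for Psmb8 in limma-voom (-0.04). With 1 library left out Psmb8 ranged from -0.12 to 0.24 and H2-Q7 from -0.17 to 1.38. The replicate block added Psmb9 and changed no other call among the 10 genes. Library totals do not adjust for the share of acinar transcripts, and the cause of each change was not tested.

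Over all genes, 1861 rose (13.3%) and 1987 fell (14.2%). Library totals gave 8337 (59.6%) and 628 (4.49%), and the replicate block 2197 (15.7%) and 2473 (17.7%). Leaving out 1 library gave 708 (4.86%) to 2793 (19.8%) higher and 1035 (7.11%) to 2892 (20.5%) lower. The lowest counts of lower genes came without low glucose replicate 2 (1035) and high glucose replicate 3 (1172). With no filter 2282 rose and 2151 fell over all genes, and 2354 fell in DESeq2 and 1955 in limma-voom. Counts for the lists are to be read beside these. Trimming and loading genes that rose numbered 8 with library totals, and 2 to 3 with 1 library left out. For proteasome partners these values were 7, and 0 to 2. Other class I genes that rose numbered 8 with library totals, 2 with no filter on low counts, and 0 to 2 with 1 library left out. Regulators that rose numbered 19 with library totals and 2 to 8 with 1 library left out. Those that fell numbered 0 with library totals or no filter, 2 with the replicate block, and 0 to 2 with 1 library left out. Class II genes that fell numbered 0 with library totals, 5 with no filter and in limma-voom, 6 in DESeq2, 7 with the replicate block, and 0 to 9 with 1 library left out. The 6 ratios kept their direction without any 1 library and without the added 0.5 counts. Depth limits Psmb9 and Nlrc5 most, with as few as 46 and 25 counts in a library.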

Other observations

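H2-Q6 and H2-Q7 are closely related class I genes, and how the authors' counting split reads between them is not known here. H2-Q7 had 31.0, 3.20 and 11.5 CPM at high and 11, 7.98 and 5.35 CPM at low glucose, and H2-Q6 had 28.8, 4.29 and 14.2 CPM at high and 12.1, 7.48 and 6.92 CPM at low glucose. Neither passed the edgeR test (adjusted p 0.385 and 0.347). The summed leukocyte, endothelial, stellate and islet endocrine markers all ran in the same order over the high glucose libraries, and their part was not tested.

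Cd274, which encodes the T-cell inhibitory ligand PD-L1, had 23.6, 8.74 and 11.6 CPM at high and 7.87, 5.15 and 5.5 CPM at low glucose. The groups did not overlap, and the log2 fold change of 1.23 ± 0.40 (SE) fell short of the threshold with an edgeR adjusted p of 0.0561. It passed in DESeq2 (adjusted p 0.0205), with the replicate block (0.0101), with library totals (0.00635), with no filter (0.0201) and without high glucose replicate 2 (0.0306). It did not pass in limma-voom (adjusted p 0.15), with the other scalings and the stricter filter (0.0536 to 0.0596), or without any 1 other library (0.0683 to 0.171). Without high glucose replicate 1 its log2 fold change was 0.69.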
